A study of Homo sapiens with 7 samples.

Results

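The regions described here are 1 kb bins of the human genome (build hg19) whose DNA methylation rose while wild-type cells were taken from stem cells to beating cardiomyocytes. A bin was included when its methylation level in the wild-type cardiomyocyte library was 15 percentage points or more above that in the wild-type stem cell library. The level of a bin is the number of reads that kept a C, taken as methylated, divided by all C and T reads, summed over both strands of its CpGs, and a bin needed 5 or more CpGs with 10 or more reads in all 7 libraries. Of 85087 such bins, 408 met the rule, against 5190 that fell by as much. The bins were thus chosen by the measured levels of the WT SC and WT CM libraries, and the size of the gain and the low WT SC level describe that choice and are not results.

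HUES8, an established line of human embryonic stem cells, was used in 2 genotypes, wild type (WT) and a knockout of TET1, TET2 and TET3 together (TKO, TET1/2/3 KO in the labels). WT had 4 stages, which were undifferentiated cells at day 0 (SC), cardiac mesoderm at day 3 (CME), progenitors of the cardiac lineage at day 8 (CP) and beating cardiomyocytes at day 14 (CM). TKO had the first 3 of these, since the series text says that these cells make no beating cardiomyocytes. Where levels are listed below without stages, they run SC, CME, CP, CM for WT and SC, CME, CP for TKO. All differentiating cells went through the same monolayer protocol, with the Wnt pathway activator CHIR99021 followed by the Wnt antagonist IWP2. The assay, enhanced reduced representation bisulfite sequencing, cuts DNA at CpG-rich sites and reads unmethylated cytosine as T. A level counts molecules from all cells of a culture, so a change in the mix of cells and a change within cells cannot be told apart. For the WT CM library the description gives day 15 and the source label gives CME, so it was assigned to CM by title alone. How many knockout clones the TKO libraries stand for was not given in the labels, and the files hold neither sequence nor expression with which to check the knockout or the cell types.

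Each genotype and stage had 1 library, so no difference below has a replicate check. The tests compare the reads of libraries, not conditions, and cover counting error only. The reads summed over listed cytosines ranged from 120742115 to 213058905 per library, and the median reads behind a gaining bin from 431.5 in WT SC to 714 in TKO SC. The fewest reads behind any gaining bin in any library were 53, and the 95% Wilson interval reached a median of 3.38 points to either side of a level and 10.6 points at the widest. The descriptions of the WT SC and WT CME libraries end in BS and those of the other 5 do not. Mitochondrial cytosines read as C made up 1.46% of mitochondrial reads in WT SC and 1.44% in WT CME, and 0.139% to 0.387% in the other 5. The step from WT CME to WT CP and the change between these sets of libraries therefore cannot be told apart. The same holds for every comparison of WT SC or WT CME with any of the other 5 libraries. Among these are WT CM minus WT SC, which chose the bins, and TKO against WT at SC and at CME. Correcting the levels for the mitochondrial share lowers WT SC more than WT CM, so it could only enlarge a gain. All 408 bins thus stayed above 15 points, and the number of gaining bins became 459. The correction is therefore no check on the sets of libraries.

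As background, methyl groups are placed on new CpGs by the de novo methyltransferases DNMT3A and DNMT3B and copied at each division by DNMT1. TET enzymes oxidise methylated cytosine, which leads to its removal, and in stem cells they keep many regulatory regions at a low or intermediate level. Cells that leave pluripotency are known to gain methylation at genes of the stem cell state, such as POU5F1, and bisulfite sequencing does not tell methylated from hydroxymethylated cytosine.

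The promoters below show what some of the measured CpGs look like. They come from the 62 gaining bins that lay within 1 kb of a RefSeq transcription start, and were chosen after their values were seen, to show 4 different courses. Each is the 250 bases before a start, 5′ to 3′, from RefSeq on GRCh38.p14. Its hg19 position was found by matching the spacing of its CpGs to the measured CpGs. Capitals mark the CpGs measured in all 7 libraries.
TBX5, minus strand, chr12:114845818-114846067: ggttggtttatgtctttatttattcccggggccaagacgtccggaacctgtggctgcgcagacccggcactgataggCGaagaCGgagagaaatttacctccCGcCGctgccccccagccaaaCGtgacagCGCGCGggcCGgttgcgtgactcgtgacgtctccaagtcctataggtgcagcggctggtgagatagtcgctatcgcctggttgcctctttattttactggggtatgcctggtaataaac
LOC105369634, minus strand, overlapping the MIR200CHG start, chr12:7072263-7072512: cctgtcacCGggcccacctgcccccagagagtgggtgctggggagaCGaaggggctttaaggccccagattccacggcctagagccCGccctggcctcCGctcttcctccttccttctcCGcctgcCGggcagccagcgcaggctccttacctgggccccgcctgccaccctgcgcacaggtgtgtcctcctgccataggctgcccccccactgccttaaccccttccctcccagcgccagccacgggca
SHROOM3-AS1, minus strand, chr4:77723143-77723392: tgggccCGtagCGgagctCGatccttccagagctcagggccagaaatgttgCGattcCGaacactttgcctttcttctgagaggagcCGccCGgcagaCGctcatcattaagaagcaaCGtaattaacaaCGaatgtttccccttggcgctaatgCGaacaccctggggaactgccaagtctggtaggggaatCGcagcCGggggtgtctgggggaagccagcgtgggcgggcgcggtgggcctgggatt
CHCHD2, minus strand, chr7:56174170-56174419: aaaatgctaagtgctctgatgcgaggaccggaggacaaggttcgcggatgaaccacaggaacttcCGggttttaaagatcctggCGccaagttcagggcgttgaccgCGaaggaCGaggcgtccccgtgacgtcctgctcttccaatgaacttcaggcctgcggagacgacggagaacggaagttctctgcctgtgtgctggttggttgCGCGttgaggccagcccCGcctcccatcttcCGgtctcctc

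At TBX5, which encodes a transcription factor of heart development, the medians over the 9 capital CpGs were 0.833%, 2.38%, 11.5% and 16.7% in WT. TKO gave 0%, 2.22% and 17.9%, so both genotypes rose after CME, and all 9 CpGs were higher in TKO CP than in TKO SC. MIR200CHG is the host gene of miRNAs of the miR-200 family that maintain epithelial character. In the stretch before the LOC105369634 start, which overlaps the MIR200CHG start on the other strand, the median over 6 CpGs was 5.00%, 17.4%, 44.2% and 52.8% along the WT stages. TKO gave 29.0%, 33.3% and 88.7%, above WT at every shared stage. SHROOM3-AS1, an antisense RNA of unknown role, had a median over 13 CpGs of 8.11%, 10.9%, 11.8% and 36.2% in WT, with the rise at the last stage, and of 83.8%, 85.9% and 92.9% in TKO. CHCHD2, a mitochondrial protein gene, had medians over 8 CpGs of 40.7%, 50%, 31.3% and 60.2% in WT and of 26.2%, 26.7% and 32.1% in TKO, and here the WT levels went up and down while TKO stayed lower than WT CM throughout.

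The WT SC and WT CM levels of the 408 bins follow from the rule and are given as a description. The WT medians were 31.3%, 43.4%, 47.6% and 55.7%. Over all bins the medians were 83.1%, 83.9%, 76.5% and 77.3%. In TKO the gaining bins had medians of 75.1%, 76.8% and 82.8%, against 83.6%, 83.4% and 87.0% over all bins. The median gain was 19.6 points and the largest 79.9. A gain of 25 points or more was seen in 107 bins and of 40 or more in 16.

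The threshold cut through a continuous range. Just inside it lay chr18:71580001-71581000 with a gain of 15.032 points, chr6:31651001-31652000 with 15.039 and chr9:141045001-141046000 with 15.067. Just outside lay chr3:9643001-9644000 with 14.998, chr21:44300001-44301000 with 14.975 and chr6:58147001-58148000 with 14.945.

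**Figure D1:**
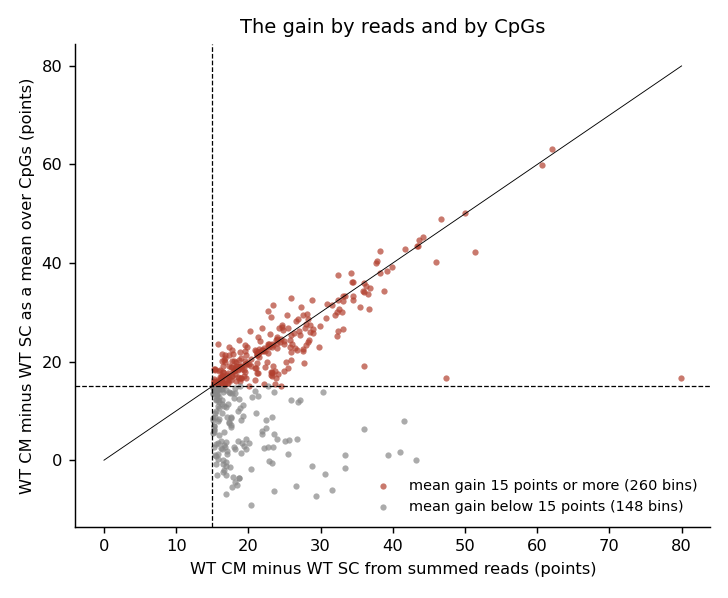
Each point is 1 of the 408 bins, with the WT CM minus WT SC difference from summed reads on the x axis and the same difference as a plain mean over the CpGs of the bin on the y axis, both in points. Of the bins, 260 lie on or above the horizontal dashed line at 15 points and 148 lie below it.

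A summed level can move because CpGs change or because reads shift between CpGs of different level. When every CpG of a bin was given the same weight, 260 of the 408 bins (63.7%) still gained 15 points or more and 148 did not, as the plot of the gain by reads and by CpGs shows. Split into a part from change at the CpGs themselves and a part from the shift of reads between them, the gain had medians of 17.4 and 1.15 points. The shift of reads was the larger part in 83 bins. The largest gain of all was part of each, with 51.8 points from its CpGs and 28.0 from the shift. In chr19:995001-996000, within WDR18, a gene for a WD-repeat protein of ribosome assembly, the WT levels were 13.8%, 13.3%, 91.9% and 93.6%, and the TKO levels 88.6%, 90.1% and 90.9%. A single CpG, at position 995204, carried 1270 of 1352 reads in WT SC with a level of 8.50%, and 52 reads in WT CM with a level of 98.1%, while the other 4 CpGs were at 80.5% or more in every library. As a mean over its 5 CpGs the bin gained 16.8 points. For this reason counts are given below for the 408 bins and for the 260 that also gained as a mean over CpGs. Of the 151 bins with enough reads on each strand alone, 142 gained on both strands and 93 by 15 points or more on both.

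The gain was spread over the stages, by a midpoint taken from the WT SC and WT CM libraries, which chose the bins. The counts are therefore a description. CP is also the first WT stage beyond the change between the sets of libraries. The first WT stage at or above the midpoint between the WT SC and WT CM levels was CME in 159 bins (39%), CP in 151 (37.0%) and CM in 98 (24.0%). Among the 260 bins the numbers were 119, 78 and 63, and among the other 148 they were 40, 73 and 35, so CME was the most frequent stage in the 260 and CP in the 148. The WT level did not fall at any step, from SC to CME, from CME to CP or from CP to CM, in 203 bins.

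Calls by Fisher's exact test (two-sided, Benjamini-Hochberg adjusted over all 85087 bins, adjusted p below 0.01 and 15 points or more) give the steps bin by bin. The pair that chose the bins called 402 of the 408 higher, which the rule sets (0.472% of all bins were called higher and 6.06% lower). From SC to CME, a comparison that shares WT SC with the rule, 79 bins were called higher and 0 lower, where 0.321% of all bins were called higher and 0.0717% lower. From CP to CM, which shares WT CM with the rule, 64 were called higher and 0 lower, against 0.442% and 0.193% of all bins. The step from CME to CP used neither library, but like the pair that chose the bins it crosses the sets of libraries described above. A difference between those sets could raise both, so this step is no independent check of the gain. There 65 bins (15.9%) were called higher and 13 (3.19%) lower, against 0.141% and 7.73% of all bins. Of the 260 bins, 31 were called higher and 11 lower at this step, and of the other 148, 34 and 2. The share called higher was thus above the background in both sets of bins, and the 148 bins held 34 of the 65 calls.

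**Figure D2:**
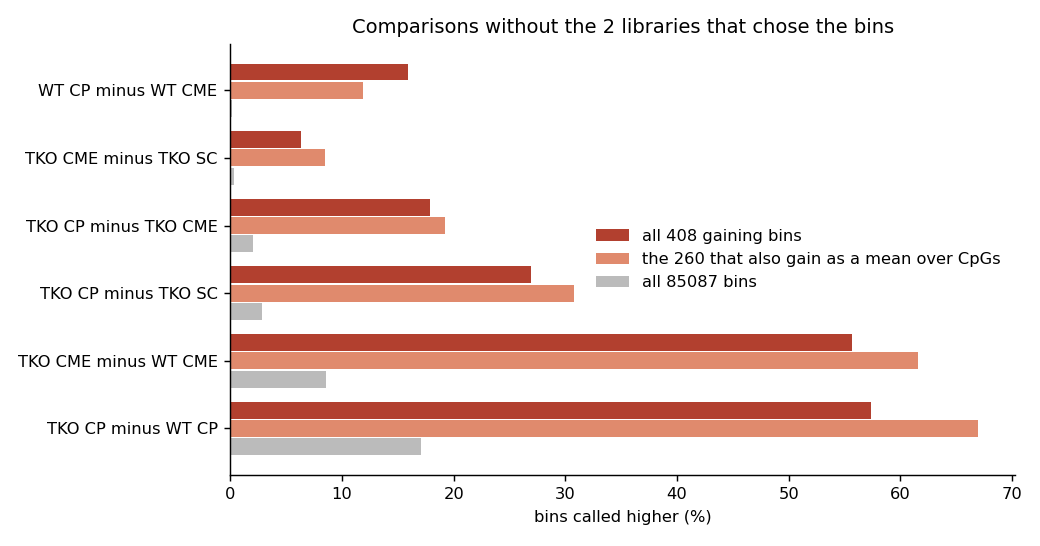
Bars give the percent of bins called higher (Fisher's exact test, adjusted p below 0.01 and 15 points or more) for 6 comparisons that use neither WT SC nor WT CM, for the 408 gaining bins, for the 260 that also gain as a mean over CpGs and for all 85087 bins. Both sets of gaining bins lie above all bins in each comparison, from 15.9% against 0.141% for WT CP minus WT CME to 57.4% against 17.1% for TKO CP minus WT CP. WT CP minus WT CME and TKO CME minus WT CME cross the sets of libraries, as did the choice of the bins.

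TKO cells, which lack the TET enzymes, gained at many of these bins too. From TKO SC to TKO CP, 110 of the 408 bins (27%) were called higher and 5 lower, against 2.82% and 0.507% of all bins. A difference above 0 was seen in 349, a count not made over all bins, where the median difference was also above 0. That median was 1.71 points over all bins and 7.36 in the gaining bins. From TKO SC to TKO CME, 26 were called higher and 5 lower (0.355% and 0.276% of all bins), and from TKO CME to TKO CP, 73 higher and 3 lower (2.00% and 0.279%). Of the 260 bins, 80 were called higher and 1 lower from TKO SC to TKO CP. No TKO library took part in the choice of the bins. The TKO level rose in the order SC, CME, CP in 240 bins (58.8%), against 33.4% of all bins.

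TKO cells also stood above WT at most of these bins from the start. In TKO SC 265 bins (65%) were called higher than in WT SC and 6 lower, against 8.89% and 0.697% of all bins. That comparison shares the WT SC library, which is low by the rule. It and the comparison of TKO CME with WT CME also cross the sets of libraries described above. The comparisons that share no library with the rule gave 227 bins higher and 11 lower in TKO CME than in WT CME (8.59% and 0.651% of all bins), and at CP 234 with TKO above WT and 8 below (17.1% and 0.159%). The TKO SC level was at or above the WT CM level in 213 bins (52.2%), and the TKO CP level in 299 (73.3%). Such counts were not made over all bins. There the medians of TKO SC (83.6%) and TKO CP (87.0%) were also above that of WT CM (77.3%). Without a background share, these counts cannot show whether gaining bins differ from other bins in this respect.

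The shares of bins called higher depend on the WT SC level. Among bins at 20% to 60% in WT SC, 77.1% of 192 gaining bins and 64.1% of all 4343 such bins were called higher in TKO SC than in WT SC. At the CP stage the order was the other way, where TKO was called above WT in 66.7% of the gaining bins and 77.6% of all bins in that range. Among bins below 20% in WT SC the gap was wider, with 63.9% of 133 gaining bins against 13.4% of 29540 bins at SC, and 73.7% against 17.3% at CP. From TKO SC to TKO CP, 40.6% of the gaining bins below 20% were called higher against 4.96% of all such bins, and 26.0% against 11.4% in the range from 20% to 60%. Among bins at 60% to 80% in WT SC, 41% of 78 gaining bins and 13.4% of 6070 bins were called higher in TKO SC than in WT SC, but at CP TKO was called above WT in 10.3% of the gaining bins and 41.7% of all such bins. The higher share in gaining bins at CP thus held below 20% and not in the ranges from 20% to 80%.

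**Figure D3:**
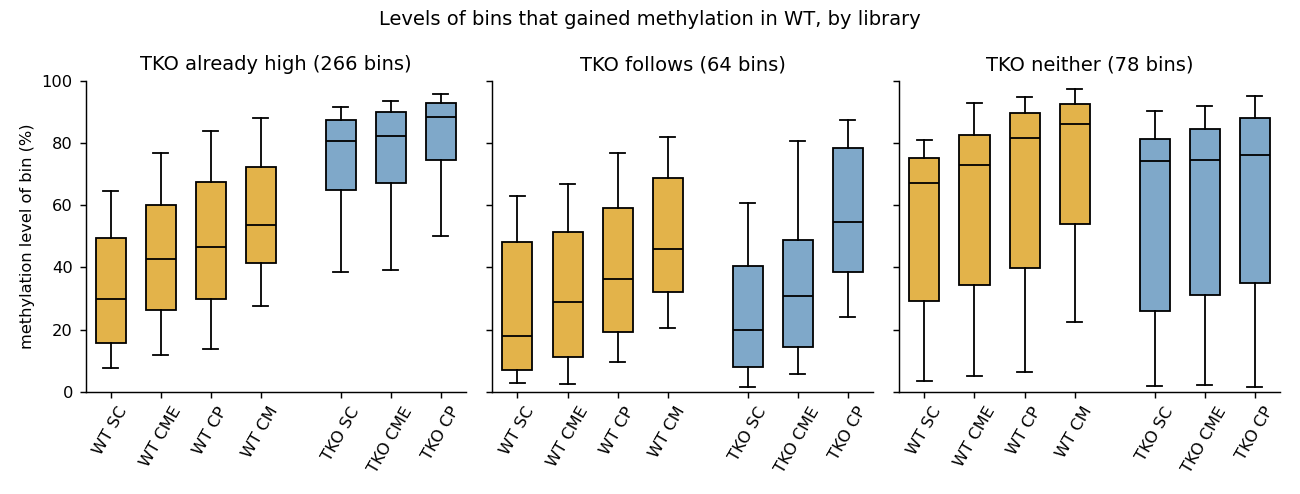
Boxes give the methylation level of the gaining bins (%, median and quartiles, whiskers from the 5th to the 95th percentile) in each of the 7 libraries, in 3 panels for bins where TKO was already high (266), followed (64) or did neither (78). The TKO medians start at 80.7% where TKO was already high and climb from 19.8% to 54.7% where TKO followed.

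Each bin was put in 1 of 3 classes by the TKO libraries. A bin was already high where TKO SC was 15 points or more above WT SC. Otherwise TKO followed where TKO CP was 15 points or more above TKO SC, and the rest did neither. TKO was already high in 266 bins (65.2%), followed in 64 (15.7%) and did neither in 78 (19.1%). Of the 260 bins the numbers were 174, 45 and 41. The class names restate the rule's own differences, so the levels of the classes are descriptions. Already high means high against WT SC only. TKO SC was as low as 19.4% in that class, and over 80% in 27 of the 78 bins that did neither. Shares of all bins in the classes were not computed. Of all bins, 8.89% were called higher in TKO SC than in WT SC and 2.82% in TKO CP than in TKO SC.

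Where TKO was already high, the medians were 29.9%, 42.7%, 46.7% and 53.8% along the WT stages and 80.7%, 82.3% and 88.3% in TKO. The WT CM median remained below that of TKO SC. In this class 46 bins were called higher in TKO CP than in TKO SC and 5 lower, against 2.82% and 0.507% of all bins. WT reached the midpoint at CME in 121 of these bins, at CP in 92 and at CM in 53.

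Where TKO followed, the medians were 17.9%, 29.0%, 36.3% and 46.0% along the WT stages and 19.8%, 30.8% and 54.7% in TKO. Both genotypes began low, and TKO CP had passed WT CP in the median. The WT midpoint was reached at CME in 13 of these bins, at CP in 24 and at CM in 27. Of the 50 gaining bins below 20% in TKO SC, 33 (66.0%) were called higher in TKO CP, against 2.26% of the 25390 bins below 20% in TKO SC.

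Where TKO did neither, WT medians were 67.3%, 73.1%, 81.6% and 86.1% and TKO medians 74.1%, 74.7% and 76.3%. This class held most of the bins that were high in WT from the start, with 40 bins at 60% to 80% in WT SC and 5 at 80% or above. It also held 7 of the 8 bins in which TKO was called below WT at CP.

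The step from CME to CP was set side by side in the 2 genotypes, and the difference between the WT step and the TKO step was tested on the reads with a z test at the same adjusted p and size. The WT step was larger in 42 bins (10.3%) and the TKO step in 74 (18.1%), against 0.252% and 13.0% of all bins. The WT step crosses the sets of libraries described above and the TKO step does not. Of the 42 bins, 33 were in the class already high, where the TKO CME median of 82.3% left the TKO step little room. Among the 260 bins that also gained as a mean over CpGs, the WT step was larger in 15 (5.77%) and the TKO step in 59 (22.7%). Among the other 148 the numbers were 27 (18.2%) and 15 (10.1%), so most calls of a larger WT step came from bins that did not gain when CpGs were weighted equally. Of the 65 bins called higher in WT CP than in WT CME, 49 also had a TKO step above 0 and 14 were called higher in TKO CP than in TKO CME, where the numbers over all 408 were 332 and 73.

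**Figure D4:**
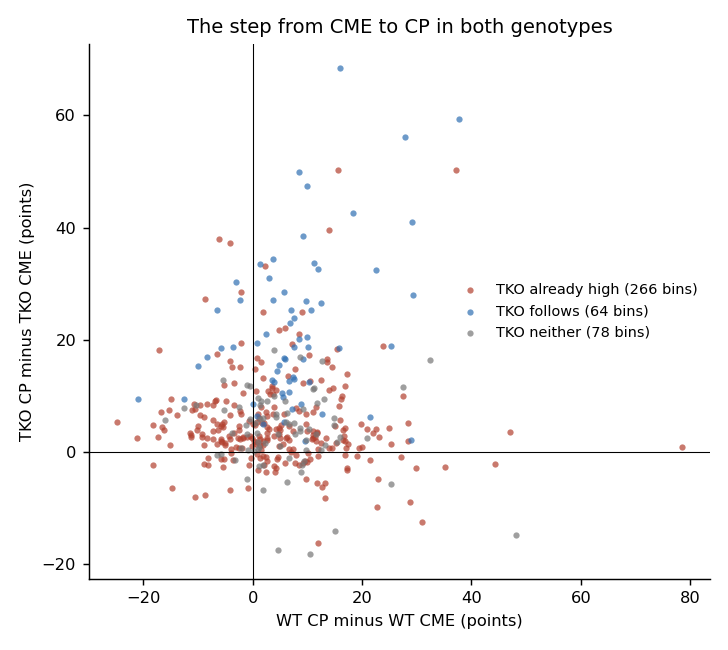
Each point is 1 of the 408 bins, with WT CP minus WT CME on the x axis and TKO CP minus TKO CME on the y axis (points), coloured by TKO class. The bins where TKO followed lie above 0 on the y axis, and the bin with the largest WT step, 78.5 points, has a TKO step of 0.849 points.

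Named bins show what these classes look like, beginning with those where TKO was already high. In chr17:4763001-4764000, in the body of MINK1, a kinase gene, WT had 17.4%, 49.7%, 70.7% and 78.0%, and TKO 92.7%, 90.8% and 94.9%. All 11 of its CpGs gained 15 points or more in WT. The WT rise was largest at the step to CME, and the 3 TKO levels lay above all 4 WT levels.

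WNT5A encodes a secreted Wnt ligand that mostly signals apart from β-catenin. Its bin, chr3:55508001-55509000, lay 6426 bases downstream of a WNT5A start, with levels of 4.87%, 7.06%, 42.2% and 51.5% in WT against 90.7%, 94.1% and 91.4% in TKO. All 10 CpGs gained 15 points or more, the gain came after CME, and WT CP was called above WT CME (adjusted p = 3.93e-35, Fisher's exact test). The WT step differed from the TKO step by 37.9 points.

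ZNF672, a zinc finger gene near the end of chromosome 1, held 2 adjacent gaining bins. In chr1:249141001-249142000 the WT levels were 17.8%, 50.4%, 50.4% and 61.4%, and the TKO levels 90.6%, 95.1% and 96.1%. In chr1:249142001-249143000 they were 33.7%, 64.4%, 70% and 77.9% in WT and 91.6%, 93.6% and 95% in TKO. In both bins most of the WT gain was present at CME, and 27 of 27 and 27 of 28 CpGs gained 15 points or more.

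EFEMP2, an extracellular matrix gene, and MUS81, a DNA repair nuclease gene, overlap chr11:65635001-65636000 by the placed starts and gene lengths. There WT stood at 17.4%, 39.5%, 53.4% and 63.4%, and TKO rose as well, from 59.2% to 78.5% and 89.6%. Of the runs of gaining bins within 5 kb of each other, a pair held 3 bins each. One, chr17:7756001-7763000, began in KDM6B, which encodes a demethylase of histone H3 lysine 27, and NAA38, a subunit of an acetyltransferase. Its first bin, chr17:7756001-7757000, went through 9.10%, 31.9%, 38.1% and 43.6% in WT and 90.2%, 90.8% and 93.3% in TKO. Its last bin, chr17:7762001-7763000, was in the class where TKO followed, with 40.5%, 40.2%, 43.7% and 61.5% in WT and 39%, 41.9% and 54.7% in TKO, and did not gain 15 points as a mean over CpGs. The other run of 3 bins, chr7:2563001-2566000, lay between the placed starts of LOC107986759 and BRAT1, where RefSeq's order has the Notch-modifying enzyme gene LFNG, and had median levels of 42.3%, 64.8%, 80.7% and 76.7% in WT and 82.6%, 84.5% and 88.8% in TKO. In chr1:151105001-151107000, in the semaphorin gene SEMA6C, a pair of bins, of which the first was in the class where TKO followed and the other was already high, had medians of 22.7%, 46.1%, 27.2% and 40.4% in WT, so that CP was lower than CME, and of 49.6%, 62.6% and 70.8% in TKO.

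The gap between the genotypes at the stem cell stage was widest in chr6:41375001-41376000, between the starts of OARD1 and FOXP4-AS1, with 4.15% in WT SC and 90.1% in TKO SC. WT then went to 11.8%, 14.5% and 19.4%, and TKO to 90.5% and 92.9%, so WT gained little of that gap. Its gain as a mean over CpGs was 14.4 points. NEURL1B, a ubiquitin ligase gene of the Notch pathway, gave 7.46%, 14.1%, 22.1% and 39.1% in WT over 59 CpGs of chr5:172110001-172111000, and 88.6%, 95% and 94.4% in TKO. MYO1C, a myosin gene, had 8.89%, 22.2%, 12.2% and 32.2% in WT at chr17:1390001-1391000, 947 bases upstream of a start, and 89.0%, 92.2% and 96.8% in TKO. In chr12:85672001-85673000, between TSPAN19 and LOC105369877, WT had 4.37%, 14.4%, 9.11% and 21.4% and TKO 88.9%, 95.6% and 94.3%. In the last 2 of these bins WT CP was lower than WT CME.

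**Figure D5:**
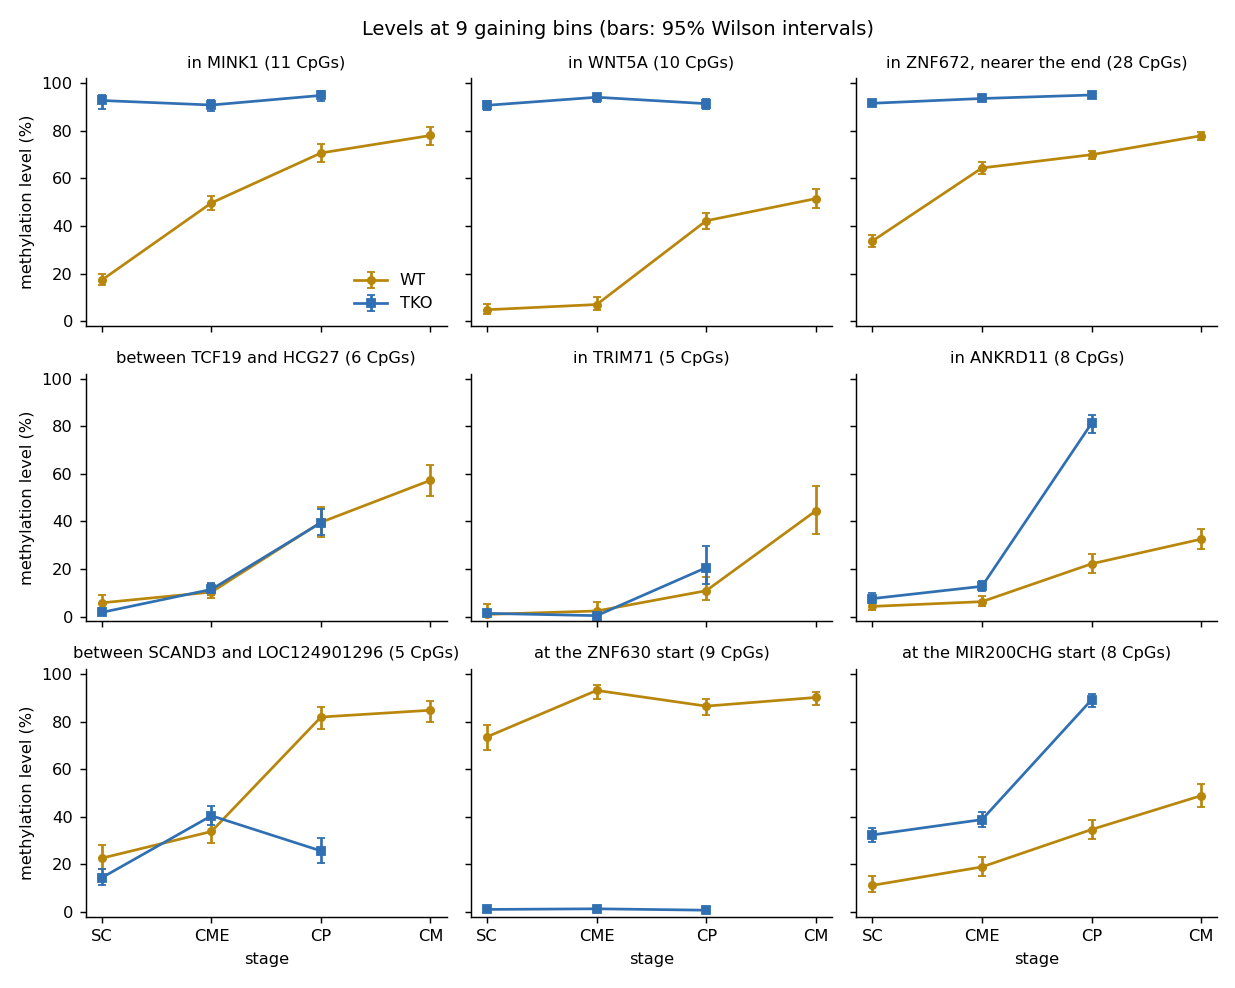
Lines join the methylation levels (%) of 9 gaining bins over the stages in WT (circles) and TKO (squares), with 95% Wilson intervals from the reads as bars. In the top row (MINK1, WNT5A, ZNF672) TKO stays above 90% while WT rises, in the middle row (between TCF19 and HCG27, TRIM71, ANKRD11) TKO starts low and rises, and in the bottom row TKO stays at 40.4% or below in 2 bins and rises to 89.1% at the MIR200CHG start.

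The next bins are from the class where TKO followed. In chr6:31138001-31139000, between the placed starts of TCF19 and HCG27, where RefSeq's order has POU5F1 and PSORS1C3, the WT levels were 5.82%, 10.3%, 39.6% and 57.3%. The TKO levels were 1.82%, 11.5% and 39.5%, the last with a 95% interval of 34.1% to 45.1% that overlaps the 33.4% to 46.2% of WT CP. POU5F1 encodes a transcription factor without which pluripotency is lost. WT CP was called above WT CME (adjusted p = 7.5e-16, Fisher's exact test) and TKO CP above TKO CME (adjusted p = 1.2e-20), and the WT and TKO steps did not pass the test of a difference (adjusted p = 0.827).

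TRIM71, an RNA-binding ubiquitin ligase of early embryos, showed its gain at the last stage. In chr3:32885001-32886000, 25512 bases downstream of its start, WT had 0.962%, 2.40%, 10.9% and 44.4%, and TKO 1.39%, 0.430% and 20.6%. The bin held 5 CpGs with between 90 and 697 reads in all, and the WT CM level has an interval of 34.6% to 54.7%. TKO CP was called above TKO CME, and WT CM above WT CP.

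A pair of gaining bins lay between the placed starts of LARP7, which encodes a protein that binds the small nuclear RNA 7SK, and CAMK2D, a kinase gene. RefSeq's order has 6 other genes in that interval, among them MIR302CHG, the host gene of miRNAs abundant in pluripotent cells, ANK2, which encodes a membrane adaptor protein, and ANK2-AS1. The bins lay 122343 and 15343 bases downstream of the LARP7 start, and the gene that the farther one belongs to was not settled. In chr4:113681001-113682000 WT had 34%, 54.4%, 76.9% and 77.3% and TKO 29.2%, 47.6% and 80%. In chr4:113574001-113575000 WT had 47.9%, 37.7%, 75.4% and 75.9% and TKO 35.0%, 21.3% and 80.7%, so in both genotypes the CME level was below the SC level, by differences that were not called (-10.3 points in WT and -13.7 in TKO). A bin of chromosome 8, chr8:38297001-38298000, for which no start was placed, had 11.7%, 16.5%, 45.8% and 61.7% in WT and 4.06%, 15.6% and 56.7% in TKO.

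The largest TKO rises went past the WT level. In ANKRD11, a chromatin regulator gene, chr16:89357001-89358000 had 4.32%, 6.31%, 22.2% and 32.5% in WT and 7.59%, 12.7% and 81.2% in TKO. MAP7D1, a microtubule-associated protein gene, had 10.1%, 25%, 33.5% and 34% in WT over 28 CpGs of chr1:36644001-36645000, and 7.30%, 21.4% and 71.4% in TKO. STX16, a gene of membrane traffic, gave 6.53%, 9.10%, 36.9% and 45.4% in WT and 4.22%, 7.52% and 63.6% in TKO at chr20:57244001-57245000. In these 3 bins TKO SC was within 4 points of WT SC and TKO CP was above WT CM.

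The zinc finger gene ZNF813 had a gaining bin 3987 bases upstream of its start, chr19:53966001-53967000. It went through 11%, 28.7%, 40.7% and 47.3% in WT and 21.6%, 46.5% and 79.2% in TKO, and all 17 CpGs gained 15 points or more in WT. The whole MIR200CHG bin, chr12:7072001-7073000, stood at 11.2%, 18.9%, 34.6% and 48.9% in WT and 32.4%, 38.8% and 89.1% in TKO. In chr19:36642001-36643000, between CAPNS1 and ZNF565, WT had 12.5%, 34%, 27.8% and 39.8% and TKO 35.3%, 53.2% and 91.3%. The last 2 were in the class already high, and TKO nonetheless rose by more than 50 points in each.

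The 6 gaining bins with the lowest TKO CP minus WT CP come next. In chr6:28725001-28726000, between SCAND3 and LOC124901296, WT had 22.6%, 33.8%, 81.9% and 84.7%, and TKO 14.5%, 40.4% and 25.7%. All 5 CpGs gained 15 points or more in WT, and TKO fell from CME to CP while WT rose by 48.1 points. The bin at the start of ZNF630, a zinc finger gene of the X chromosome, chrX:47930001-47931000, was at 73.6%, 93.1%, 86.5% and 90.1% in WT and at 1.09%, 1.36% and 0.767% in TKO. In chr2:88124001-88125000, between LOC105377635 and LOC105374852, WT had 70.8%, 81.8%, 76.1% and 87.6% and TKO 1.49%, 1.41% and 1.10%. At these last 2 bins the genotypes were apart from SC on, in the opposite direction to most gaining bins.

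The bin chr6:58287001-58288000, between RAB23 and LOC128125822, had 29.0%, 41.7%, 52.2% and 62.3% in WT and 11.8% and 18.3% in TKO SC and CME. TKO CP had 0 of 84 reads methylated, which allows a level of up to 3.57% by a limit of 3 reads and of up to 4.37% by the 95% Wilson interval. ZNF398, another zinc finger gene, had 53.7%, 71.5%, 86.6% and 90.5% in WT at chr7:148843001-148844000, within 1 kb of its start and that of LOC107986856, and 35.7%, 55.9% and 41.7% in TKO. In chr7:68527001-68528000, far upstream of AUTS2, WT had 12.5%, 34.9%, 49.6% and 37.0% from 72 to 135 reads, and TKO 34.1%, 15.7% and 27.1%. By its SC levels this bin was in the class already high, and its TKO level then fell.

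Of the 6 bins with the largest WT step from CME to CP, 2 lost their gain when CpGs were weighted equally. One, chr2:133014001-133015000, had 34.4%, 33.8%, 78.0% and 77.6% in WT and 82.6%, 84.7% and 82.6% in TKO from 64 CpGs, with 50184 reads in WT SC and 11305 in WT CP. As a mean over CpGs its gain was 0.0663 points, and on the plus strand alone the difference was -1.92 points. The other, chr12:20704001-20705000, had 54.3%, 47.9%, 85.0% and 90.2% in WT and 70.8%, 36.4% and 86.6% in TKO, with a mean gain of 6.24 points. Another bin of these 6, chr2:87141001-87142000, went from 45.0% and 45.7% to 92.7% and 92.3% in WT with 88.1%, 89.8% and 93.4% in TKO, and its mean gain was 16.7 points from 8 of 34 CpGs.

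Genes of listed groups were looked up within 2 kb of the gaining bins. Among 58 bins in or near the 11 pluripotency genes with a placed start (of 31 listed), 2 gained and 3 were called lower in WT CM. They lay at TRIM71 and at ZFP42, a zinc finger gene used as a marker of pluripotent cells, where chr4:188918001-188919000, 1076 bases downstream of the start, had 4.33%, 14.3%, 8.85% and 21.0% in WT and 6.18%, 4.43% and 17.2% in TKO. Of 86 bins at 14 cardiac genes, 2 gained and 10 were called lower. The gains were at TBX5, whose bin chr12:114845001-114846000 had 1.98%, 2.08%, 9.60% and 19.2% in WT and 1.35%, 2.43% and 21.2% in TKO, and at SLC8A1, the sodium-calcium exchanger gene, where chr2:40678001-40679000 had 2.45%, 4.11%, 5.26% and 22.3% in WT and 4.28%, 9.08% and 6.48% in TKO. At SLC8A1 the WT rise came at CM, for which there is no TKO library.

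TET2 is itself knocked out in TKO cells. Its bin chr4:106080001-106081000, 11968 bases downstream of the start, had 53.3%, 63.4%, 72.6% and 78.7% in WT and 85.8%, 79.4% and 91.7% in TKO, and was the 1 gaining bin of 70 at 5 genes for enzymes that write or remove methylation. STK31, a kinase gene of germ cells, gave the 1 gaining bin of 48 at 16 germline genes, chr7:23750001-23751000, with 74.6%, 83.7%, 91.5% and 92.2% in WT and 89.9%, 91.8% and 89.8% in TKO, and a mean gain of 8.64 points. LHX2, a homeobox gene of the forebrain, gave the 1 of 53 at 8 neural genes, chr9:126792001-126793000, with 53.6%, 77.0%, 69.7% and 69.3% in WT and 85.5%, 87.9% and 93.5% in TKO. No gaining bin lay at the placed genes of the epithelial, imprinted, mesoderm, HOX, endothelial and blood or endoderm lists, over 18, 53, 23, 84, 36 and 28 bins. Of all bins, 0.480% gained.

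The WT SC level is part of the rule, so the shares by that level only describe the choice. Of the 4343 bins at 20% to 60% in WT SC, 192 (4.42%) gained, against 133 (0.450%) of 29540 below 20%, 78 (1.29%) of 6070 at 60% to 80% and 5 (0.0111%) of 45134 at 80% or above, where a gain of 15 points has little or no room. Bins with 5 to 9 CpGs gained in 249 cases (0.582%), those with 10 to 19 in 88 (0.428%), those with 20 to 39 in 51 (0.396%) and those with 40 or more in 20 (0.225%). The median was 8 CpGs in gaining bins and 9 in all bins.

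By place, 62 of 19521 bins within 1 kb of a placed start gained (0.318%), 124 of 24766 in gene bodies (0.501%) and 222 of 40800 elsewhere (0.544%). Starts were placed for 13153 of 27305 genes, so the bins counted as elsewhere include those at genes without a placed start and all 3382 bins of chromosome 8. Of the 62 at starts, 31 also gained as a mean over CpGs, and of the 124 in gene bodies, 95. Chromosome 1 held 45 gaining bins (0.629% of its bins), chromosome 19 held 36 (0.521%), chromosome 7 held 29 (0.589%) and chromosome 9 held 28 (0.689%). The X chromosome held 15 of 1607 (0.933%). The 408 bins formed 387 runs when those within 5 kb were joined, of which 368 were single bins, and 40 bins lay in the 19 runs of 2 or more. No annotation of hg19 was used, so exons, introns and UTRs are not given.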

How the data were processed

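Alignment and methylation extraction were done by a core facility, per the labels' protocols. The build was hg19, per the submitters' processing notes. Which aligner and which caller were used is not given in the sources used here. Deposited files give, per CpG cytosine and strand, the coverage as a read count that the authors left unnormalized, and, per the file headers, the percent of those reads with C and with T. Every listed cytosine had 10 or more reads.

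Coverage times percent gave whole reads in 100% of lines. Reads of both strands were summed per CpG and per 1 kb bin. Summed reads of 2 libraries were compared by a two-sided Fisher's exact test, with Benjamini-Hochberg adjustment over 85087 bins, and a bin was called at an adjusted p below 0.01 and 15 points or more. Reads over several CpGs enter once per CpG and PCR copies may be included, so the p-values and intervals can be too small. The comparison of TKO CME with WT CME and the test of WT against TKO steps were added after the data were seen. On simulated reads for WT CP minus WT CME over 85087 bins, 98 of 100 bins changed by 20 points, 99 of 100 changed by 30 points and 0 of 84887 unchanged bins were called. The simulated reads were independent, with a single level per bin and library. They did not copy reads that enter once per CpG, shifts of reads between CpGs or differences between replicate libraries. The result therefore covers counting error and does not measure false calls in these data.

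RefSeq promoters (GRCh38.p14) were placed in hg19 by the spacing of their CpGs. Of them, 12648 were placed by 10 or more measured CpGs at 1 place on their chromosome, of which 12601 (99.6%) kept the reference's spacing to a neighbour, and 3280 more by 4 or more CpGs and that spacing within 50 bases. Starts of 13153 of 27305 genes were placed. A gene body is the stretch downstream of a placed start over the gene's length in RefSeq.

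The members and gene lists were chosen with earlier results of these data known. Named bins are the 12 with the largest gain, the 6 largest called WT CP minus WT CME and TKO CP minus TKO SC differences, the 6 highest TKO SC minus WT SC and lowest TKO CP minus WT CP, the 4 runs with most members, the 3 on either side of the threshold and all members within 2 kb of a listed gene. The tools were numba 0.67.0, scipy 1.17.1, pandas 2.3.3 and numpy 2.4.6 under Python 3.11.15, with matplotlib 3.10.9 for figures. Alternatives are given at the end.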

Additional observations from a re-analysis of the deposited data

Results flagged for a closer look

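At 17 of the bins named above the WT step from CME to CP differed from the TKO step by the z test on reads at an adjusted p below 0.01 and 15 points or more. With 1 library per group this compares 4 libraries. The WT step crosses the sets of libraries described above and the TKO step does not. The WT step was the larger by 77.7 points in chr19:995001-996000 (WDR18), by 62.8 in chr6:28725001-28726000 (between SCAND3 and LOC124901296), by 46.3 in chr2:133014001-133015000, by 43.5 in chr2:87141001-87142000, by 37.9 in chr3:55508001-55509000 (WNT5A), by 29.3 in chr7:148843001-148844000 (ZNF398), by 28.9 in chr6:58287001-58288000 and by 16.9 in chr17:4763001-4764000 (MINK1). In the other 9 the TKO step was the larger, so that the WT step minus the TKO step was -52.5 points in chr16:89357001-89358000 (ANKRD11), -44.2 in chr19:36642001-36643000, -41.5 in chr1:36644001-36645000 (MAP7D1), -34.6 in chr12:7072001-7073000 (MIR200CHG), -30.6 in chr6:31651001-31652000, -28.3 in chr20:57244001-57245000 (STX16), -21.7 in chr4:113574001-113575000 (LARP7), -20.7 in chr19:53966001-53967000 (near ZNF813) and -18.3 in chr4:188918001-188919000 (ZFP42). Over all bins the WT step was called larger in 0.252% and the TKO step in 13.0%. Among the bins with the larger WT step, TKO CME was already at 84.7% to 94.1% in WDR18, WNT5A, MINK1 and both chromosome 2 bins. That left the TKO step little room there, while TKO CME was at 18.3% to 55.9% in the rest. As a mean over CpGs, chr2:133014001-133015000 gained 0.0663 points from WT SC to WT CM.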

How the results depend on the processing

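The 408 bins included 65 called higher in WT CP than WT CME, 110 in TKO CP than TKO SC, 73 in TKO CP than TKO CME, 265 in TKO SC than WT SC, and 234 higher and 8 lower in TKO CP than WT CP. With 10 or more CpGs per bin these became 159 bins with 22, 41, 27, 122, 119 and 1, as fewer bins were tested. With 25 points to choose and call they became 107 bins with 19, 23, 17, 62, 49 and 3. With 20 reads per CpG 34 were higher in WT CP than WT CME and 3 lower in TKO CP than WT CP. With the mean of CpG levels 31 were higher in WT CP than WT CME. With the minus strand alone 4 were lower in TKO CP than WT CP. With the part from change at the CpGs alone, an alternative chosen after seeing the data, 34 were higher in WT CP than WT CME and 176 in TKO SC than WT SC. The cause of these changes was not tested, other than where fewer bins were tested. Shares over all bins under each alternative are not given here, so these counts alone do not show whether the excess over all bins held. On the plus strand alone the bin chr2:133014001-133015000 reversed, to -1.92 points for WT CM minus WT SC and -3.93 for WT CP minus WT CME. Over the named bins and the alternatives run, 676 values kept their direction and call, 57 lost the call, 3 gained one and 2, those just given, changed sign. The other counts stayed within 1.5 times of those reported under these alternatives, the mitochondrial correction and bins shifted by 500 bases. Of the 408 bins, 259 of the 280 measurable at 20 reads, 179 of 231 on the plus strand and 182 of 232 on the minus strand still gained 15 points. No paired analysis was possible because each group has 1 library and the labels carry no replicate numbers. Depth limits the bins with few reads, such as TRIM71 with 90 reads in WT CM.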

Other observations

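Some gaining bins lay in intervals between placed starts where RefSeq's order has a listed gene whose own start was not placed. They were singled out after their values were seen, and lying in such an interval does not settle the gene a bin belongs to. Over the pluripotency list this held for 6 of 172 bins, over the epithelial list for 2 of 118, over the imprinted list for 2 of 197 and over the neural list for 2 of 92. The 6 include the WNT5A bin described above, which lies in the body of WNT5A. It was counted because RefSeq's order has the listed gene ESRG in the same interval. It held for 0 bins of 92, 125, 13, 42, 31, 27 and 18 over the germline, cardiac, mesoderm, HOX, endothelial and blood, endoderm and methylation enzyme lists. Of all bins, 0.480% gained. In chr20:31338001-31339000, in the interval of DNMT3B, which encodes a de novo methyltransferase, WT had 24.0%, 29.2%, 47.5% and 49.8% at SC, CME, CP and CM, and TKO 8.37%, 14.2% and 56.9% at the first 3. A second bin of that interval, chr20:31353001-31354000, had 55.4%, 68.5%, 77.7% and 73.9% in WT and 58.6%, 67.7% and 84.2% in TKO. In chr3:109054001-109055000, in the interval of DPPA4, a gene of pluripotent cells, WT had 3.40%, 4.03%, 2.99% and 31.2% and TKO 1.15%, 0.909% and 4.01%, so the WT rise came at CM, a stage with no TKO library.

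Both bins of the OTX2 interval followed the same course. OTX2 encodes a homeobox factor of the forebrain and of stem cells leaving the naive state. The pair, chr14:57264001-57266000, had medians of 2.10%, 3.33%, 9.70% and 21.1% in WT and 8.81%, 9.33% and 35.0% in TKO over 42 and 46 CpGs. The counted bins in the intervals of GDF3, ESRP2, ST14 and KCNQ1OT1 are not described here. CYP26A1 and FOXC1, which come next, are on none of the lists and were also singled out after their values were seen. In chr10:95040001-95041000, in the interval of CYP26A1, an enzyme that degrades retinoic acid, WT had 3.95%, 2.61%, 12.6% and 29.3% and TKO 0.796%, 1.92% and 49.4%. Near FOXC1, a forkhead factor of mesoderm, 2 gaining bins in chr6:1619001-1622000 had medians of 11%, 17.1%, 25.5% and 35.5% in WT and 89.5%, 91.0% and 94.4% in TKO.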
